A study of Mus musculus with 6 samples.

Results

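Described here are 10 genes of the TREM2-APOE program of disease-associated microglia in spinal cord microglia of mice. They were taken as a fixed list of symbols, drawn up with earlier results of these data known. All 10 were found among the 55401 genes of the count table. The list was divided by known role into 2 constitutive sensors, Trem2 and Tyrobp, and 8 inducible targets, Apoe, Cst7, Axl, Itgax, Spp1, Gpnmb, Igf1 and Csf1. Total RNA was sequenced from CD11b-selected cells of untreated animals aged 7 months. The ATXN2-Q33;TDP-43 animals were double mutants, heterozygous for a knock-in of human ATXN2-Q33 and for human TDP-43, and were compared with NTg, non-transgenic C57BL/6 mice. Each group had 3 libraries from 9 animals, and each library pooled the cells of 3 spinal cords, so differences between single animals were averaged before sequencing. The promoter that drives human TDP-43 and the sex of the animals are not given in the sources used here. Libraries are called here by the number in their titles, 8, 10 and 12 for the mutants and 7, 9 and 11 for NTg.

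TREM2 is a surface receptor of microglia that binds lipids, lipoproteins and debris. It has no signalling tail of its own and passes its signal through TYROBP, also known as DAP12, whose immunoreceptor tyrosine-based activation motif recruits the kinase SYK. In mouse models of plaque formation and demyelination, microglia that contact lesions lower their homeostatic genes and raise a set of lipid, phagocytic and growth factor genes, and the later part of that response depends on Trem2. Apoe, which codes for the main apolipoprotein of the brain, belongs to the early part, and Cst7, Axl, Itgax, Spp1, Gpnmb, Igf1 and Csf1 to the later part.

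No member passed the test between the genotypes, and the values of 9 of the 10 were somewhat lower in the mutants. Levels are given as counts per 1000000 counts of a library (CPM), with library sizes scaled by the trimmed mean of M-values (TMM), and a log2 fold change is ATXN2-Q33;TDP-43 over NTg, so negative values mean lower in the mutants. By edgeR's quasi-likelihood test, 0 of the 10 members reached an adjusted p of 0.05, as did 0 of all 16248 genes tested (0%), and the adjusted p was 0.9996 for each member. At an unadjusted p under 0.05 there was 1 member, Axl, which was lower, against 2.26% of all genes in either direction and 0.862% lower. The log2 fold change was negative for 9 of 10 members, against 48.0% of all genes with a negative and 52.0% with a positive value. Its median was -0.15 over the members and 0.01 over all genes tested. Among 16 homeostatic microglia genes, 13 were negative as well and 3 positive, with a median of -0.04. Mutant and NTg libraries did not overlap for 1 of 10 members, again Axl, against 6.85% of all genes in either direction, 3.27% higher and 3.58% lower. DESeq2 and the voom fit of limma called 0 of the 10 members as well, against 0.0431% and 0% of all genes at the adjusted threshold. At an unadjusted p under 0.05, each had 1 of the 10 members, Axl, against 2.45% of all genes with DESeq2 and 1.75% with voom. In an alternative chosen after seeing the data, edgeR with neighbouring library numbers as a block called 71 genes and 0 of the members, with the smallest adjusted p among the members at 0.0862 for Axl; the labels do not give these pairs. The members are genes of the same cells in the same 6 libraries, so their shared sign is a description of these libraries and not a count of independent observations.

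**Figure D1:**
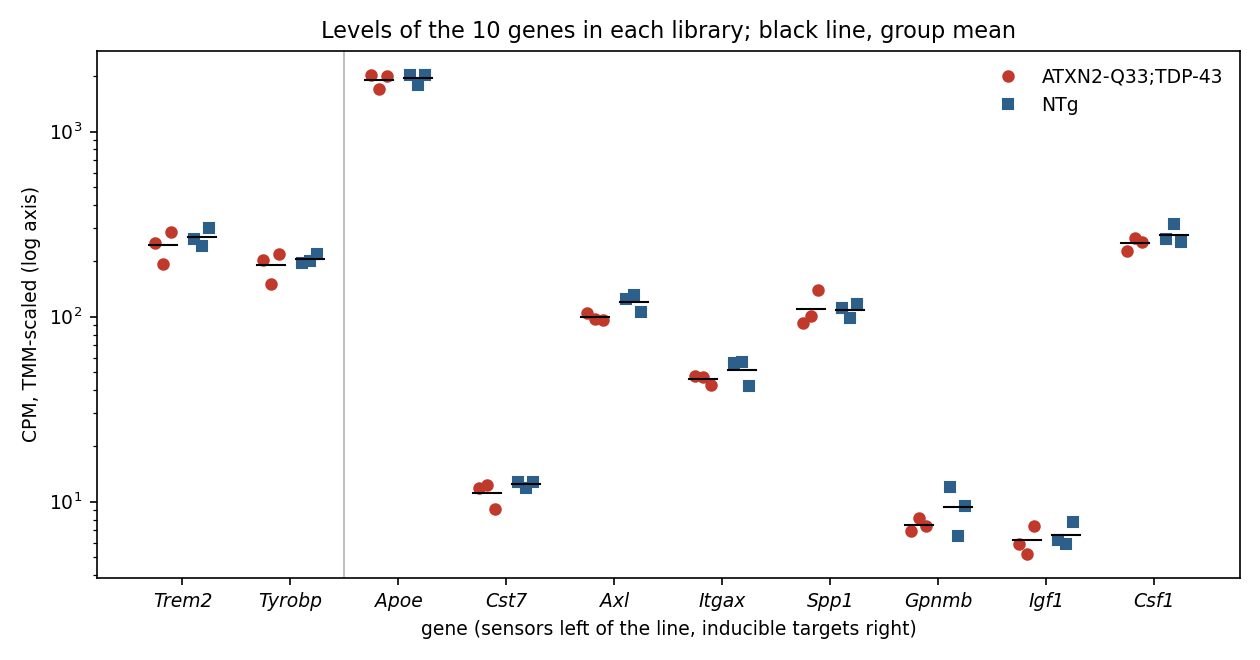
CPM of the 10 genes in each library on a log axis, with the 3 ATXN2-Q33;TDP-43 libraries (circles) left of the 3 NTg libraries (squares) for each gene and black lines at the group means. Axl is the gene whose mutant libraries, at 95.5 to 104 CPM, all lie below the NTg libraries, at 106 to 131 CPM.

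All 6 libraries carried the microglial identity of the label, at unequal strength. The summed level of 16 homeostatic microglia genes, among them P2ry12, Tmem119 and Cx3cr1, ran from 14488 to 20778 CPM in the mutants and from 16209.7 to 20277 CPM in NTg. Within it, log2 fold changes were -0.08 (SE 0.15) for Sparc and -0.08 (SE 0.16) for Olfml3. Library 10 of the mutants had the lowest sum and library 9 of NTg the next. These 2 libraries also had the highest summed oligodendrocyte markers, 1132 CPM in mutant library 10 and 1643 CPM in NTg library 9, against 167 to 443 CPM in the other 4. Total counts ran from 12553570 to 22854628 per library. In bulk RNA of this kind, fewer cells of a type and less RNA per cell cannot be told apart.

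The members covered a wide range of levels, from among the most abundant mRNAs to genes with 77 to 210 counts per library. To compare genes, CPM were divided by gene length in kilobases (FPKM), first with the exon length in the deposited table, which joins the exons of all isoforms. On this scale Apoe stood at 892 ± 88.3 FPKM in the mutants and 909.9 ± 62.7 FPKM in NTg (SD, n = 3 each), above 99.7% of the genes tested. Tyrobp followed with 285 ± 54.5 and 305 ± 19.0 FPKM (SD, n = 3 each), above 99.1% of genes. Spp1 measured 67.1 ± 15.3 and 66.2 ± 5.75 FPKM, Trem2 49.3 ± 9.80 and 54.3 ± 6.13 FPKM, and Csf1 47.1 ± 3.94 and 52.3 ± 6.41 FPKM, in the mutants and in NTg. Axl, Cst7 and Itgax lay between 9.55 and 24.0 FPKM as group means. Gpnmb, at 1.15 ± 0.09 and 1.44 ± 0.42 FPKM, and Igf1, at 0.62 ± 0.11 and 0.67 ± 0.10 FPKM, were the lowest, above 28.7% and 16.3% of genes.

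The order of Trem2 depended on the length used. Its exon length was 4946 bases in the deposited table, but its principal transcript in GENCODE vM21, which is on the same assembly, has 1088 bases. Per length of the principal transcript, an alternative chosen after the data were seen, Trem2 measured 224 ± 44.5 FPKM in the mutants and 247 ± 27.9 FPKM in NTg (SD, n = 3 each), and stood next to Tyrobp at 337 ± 64.5 and 361 ± 22.5 FPKM. On that scale Trem2 was 3.23 times as high as Spp1, with no overlap of their libraries, while per exon length Spp1 was 1.29 times as high as Trem2 and their libraries overlapped. Apoe was highest and Tyrobp was second under both lengths, with each pair in the same order in 6 of 6 libraries. Trem2 and Csf1 per exon length kept their order in 4 of 6 libraries, and Itgax and Cst7 per principal transcript in 3 of 6, so neither pair differed beyond its spread. Gpnmb and Igf1 also changed places: Gpnmb was higher per exon length, in 6 of 6 libraries, and Igf1 was 1.68 times as high as Gpnmb per principal transcript.

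**Figure D2:**
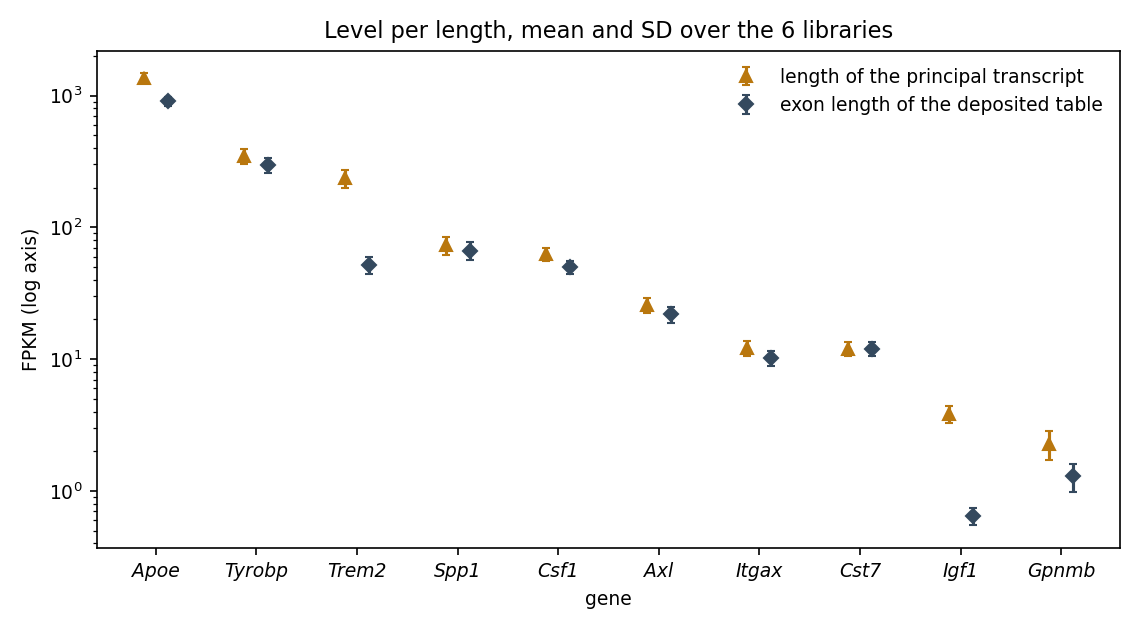
FPKM of the 10 genes on a log axis, as the mean and SD over the 6 libraries, divided by the principal transcript length (triangles) or by the exon length of the deposited table (diamonds). Trem2 lies at 235 FPKM by the first length and at 51.8 FPKM by the second, and Igf1 at 3.83 and 0.65 FPKM.

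The sensors overlapped between the genotypes and were set apart mainly by mutant library 10. Trem2 (ENSMUSG00000023992, mm10 chr17:48346401-48354147, plus strand) had 251, 192 and 288 CPM in mutant libraries 8, 10 and 12, against 262, 242 and 301 CPM in NTg libraries 7, 9 and 11. The log2 fold change of Trem2 was -0.14, with SE 0.15 and a 95% interval from -0.49 to 0.21, that is between 0.71 and 1.15 times the NTg level (p = 0.5, exact permutation test, two-sided). Tyrobp (ENSMUSG00000030579, mm10 chr7:30413760-30417585, plus strand) had 202, 149 and 219 CPM in the mutants, against 194, 199 and 218 CPM in NTg. Mutant library 10 was the lowest of the 6 for both sensors, while mutant libraries 8 and 12 lay within the NTg range for Trem2 and within or just above it for Tyrobp. The log2 fold change of Tyrobp was -0.10, with SE 0.14 and a 95% interval from -0.41 to 0.22 (p = 0.9, exact permutation test, two-sided). Without mutant library 10 both signs turned, to 0.0058 for Trem2 and 0.048 for Tyrobp. The ratio of Tyrobp to Trem2 in FPKM per exon length stayed between 5.65 and 5.97 in the mutants and between 5.37 and 6.11 in NTg, a narrow range for receptor and adaptor in all 6 libraries.

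Among the surface receptors of the program, Axl was the member with the clearest difference. Axl, a receptor tyrosine kinase that takes up dying cells through the bridging ligand GAS6 (ENSMUSG00000002602, mm10 chr7:25757273-25788705, minus strand), had 104, 97.2 and 95.5 CPM in the mutants, against 124, 131 and 106 CPM in NTg. The 3 mutant libraries lay within 10 CPM of each other and below every NTg library, although mutant library 8 and NTg library 11 were close. Axl averaged 99.0 ± 4.77 CPM in the mutants and 121 ± 12.9 CPM in NTg (SD, n = 3 each). By edgeR its log2 fold change was -0.28, with SE 0.10, a 95% interval from -0.51 to -0.06, an unadjusted p of 0.0189 and an adjusted p of 0.9996. The exact permutation test gave p = 0.1 (two-sided), the smallest that 3 against 3 libraries allow. The negative sign held in each of the 6 fits that left out 1 library, from -0.36 to -0.22, with unadjusted p from 0.00504 to 0.0755, and it was -0.20 (unadjusted p = 0.122 by edgeR) without mutant library 10 and NTg library 9 together. The alignments of NTg libraries 7 and 9 are named as combined in the table header and those of the other 4 are not. With that mark as a covariate, which leaves NTg library 11 alone as the control, Axl had a log2 fold change of -0.10 (unadjusted p = 0.408 by edgeR), and the mark and the genotype cannot be told apart in NTg libraries 7 and 9.

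Itgax codes for CD11c, the integrin alpha chain that names the CD11c-positive microglia of lesions (ENSMUSG00000030789, mm10 chr7:128129547-128150657, plus strand). It had 47.8, 47.2 and 42.5 CPM in the mutants, against 56.0, 57.0 and 42.3 CPM in NTg. NTg libraries 7 and 9 were high and NTg library 11 was the lowest of all 6, so the groups overlapped. The log2 fold change of Itgax was -0.17, with SE 0.13 and a 95% interval from -0.46 to 0.12, and it turned to 0.12 when the combined alignments were a covariate. Gpnmb, a transmembrane glycoprotein of late endosomes and lysosomes (mm10 chr6:49036546-49070929, plus strand), was the most uneven member among the NTg libraries, with 6.97, 8.14 and 7.43 CPM in the mutants, against 12, 6.52 and 9.53 CPM in NTg. The NTg libraries held both its highest and its lowest value, and it rested on 94 to 143 counts per library in the mutants and 99 to 210 in NTg. Its log2 fold change, -0.31 with SE 0.24, was the most negative among the members, and its 95% interval, from -0.86 to 0.23, was the widest. Without NTg library 7 it was -0.10, and without NTg library 9 it was -0.52.

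Of the secreted members, Apoe was nearly level between the genotypes. Apoe (ENSMUSG00000002985, mm10 chr7:19696109-19699188, minus strand) had 2026, 1689.7 and 2007 CPM in the mutants, against 2017, 1791 and 2028 CPM in NTg. The lower value in each group came from library 10 of the mutants and library 9 of NTg, the libraries with the lowest homeostatic sums. The log2 fold change of Apoe was -0.03, with SE 0.11 and a 95% interval from -0.28 to 0.22, which limits a difference to between 0.82 and 1.17 times the NTg level. Spp1, the matrix protein osteopontin (mm10 chr5:104435118-104441050, plus strand), was the 1 member with a positive value. It had 91.8, 100.5 and 139 CPM in the mutants, against 112, 98.6 and 117 CPM in NTg, so that the mutants held both its lowest and its highest library. Its log2 fold change of 0.02, with SE 0.16 and a 95% interval from -0.33 to 0.37, turned to -0.18 without mutant library 12, to -0.049 without NTg library 9 and to -0.081 when the combined alignments were a covariate. Its exons overlap those of the gene model Gm42793 on the same strand, which took 4.85% to 6.27% as many counts as Spp1 in the 6 libraries, and shared fragments count for both.

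Csf1, the ligand of the receptor on which microglia depend for survival (mm10 chr3:107741048-107760469, minus strand), had 226, 267 and 254 CPM in the mutants, against 262, 315 and 252 CPM in NTg. Mutant library 8 was lowest and NTg library 9 highest, with the other 4 between 252 and 267 CPM. For Csf1 the log2 fold change was -0.15, with SE 0.11 and a 95% interval from -0.40 to 0.10, and -0.017 when the combined alignments were a covariate. Igf1, a growth factor that supports neurons and myelin (mm10 chr10:87858265-87937042, plus strand), had 77 to 142 counts in the mutants and 77 to 171 in NTg, or 5.93, 5.22 and 7.38 CPM against 6.20, 5.93 and 7.76 CPM. Its highest library in each group was the one with the highest homeostatic sum, mutant library 12 and NTg library 11. Its log2 fold change of -0.10, with SE 0.23 and a 95% interval from -0.62 to 0.41, leaves room for differences in either direction. Cst7, the lysosomal protease inhibitor cystatin F (mm10 chr2:150570415-150578944, plus strand), had 11.9, 12.3 and 9.14 CPM in the mutants, against 12.8, 11.9 and 12.8 CPM in NTg. Mutant library 12 alone was low, and without it the log2 fold change of -0.17, with SE 0.17 and a 95% interval from -0.56 to 0.21, became -0.048.

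**Figure D3:**
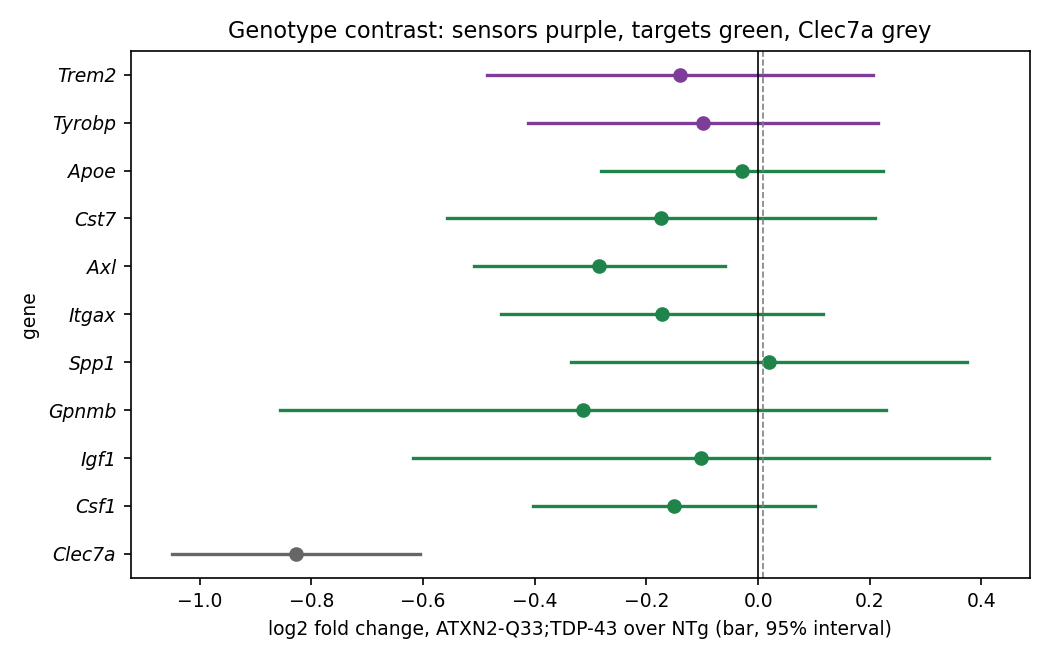
Log2 fold change of ATXN2-Q33;TDP-43 over NTg with its 95% interval from the edgeR fit, for the 2 sensors (purple), the 8 targets (green) and Clec7a (grey), with the median of all genes tested as a dashed line at 0.01. Among the members the interval lies below 0 for Axl, from -0.51 to -0.06, and includes 0 for the other 9.

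By their medians, sensors and targets did not follow the same libraries, though the targets Igf1 and Apoe ran much as the sensors did. The median log2 fold change was -0.12 over the 2 sensors and -0.16 over the 8 targets, and 7 of 8 targets had a negative value. Between libraries, however, the sensors followed the homeostatic genes. Relative to the mean of the 6 libraries on the log2 scale, the median deviation of the sensors was 0.02, -0.39 and 0.17 in mutant libraries 8, 10 and 12, against 0.02, -0.02 and 0.20 in NTg libraries 7, 9 and 11. The homeostatic sum deviated by -0.01, -0.29 and 0.23 in the mutants, against 0.01, -0.13 and 0.19 in NTg. Sensors and homeostatic genes were thus both lowest in mutant library 10 and highest in mutant library 12 and NTg library 11. The median deviation of the targets was -0.08, -0.08 and -0.09 in the mutants, against 0.09, -0.04 and 0.09 in NTg, a narrower range in which the 3 mutant libraries lay together. The targets were also uneven among themselves. Igf1 deviated by -0.09, -0.26 and 0.20 in the mutants, against -0.03, -0.09 and 0.27 in NTg, much as the homeostatic sum did. Apoe was likewise lowest in mutant library 10, at -0.19, and highest in NTg library 11, at 0.08. Axl, Itgax and Csf1 were highest in NTg library 9, Igf1, Apoe and Cst7 in NTg library 11, Spp1 in mutant library 12 and Gpnmb in NTg library 7. The mutants held the highest library for 2 of the 10 members and the lowest for 8 of the 10. Mutant library 10 held 4 of these 8. The shares over all genes tested were not counted, so these counts describe only these libraries.

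**Figure D4:**
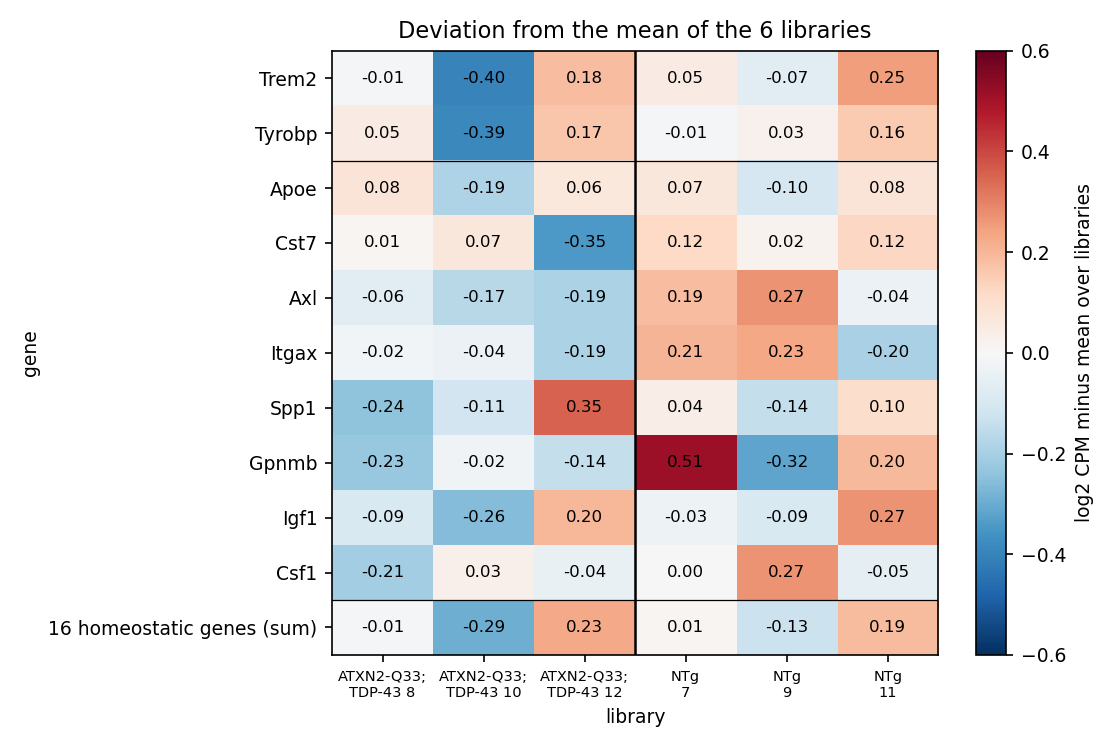
Deviation of log2 CPM from the mean of the 6 libraries for each of the 10 genes (rows) and for the summed level of 16 homeostatic genes (bottom row), with ATXN2-Q33;TDP-43 libraries left of NTg libraries. Trem2 and Tyrobp are low in mutant library 10, at -0.40 and -0.39, as is the homeostatic sum at -0.29, while Axl and Itgax are high in NTg libraries 7 and 9.

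Because the sensors followed the homeostatic genes, levels were also expressed per 1000 CPM of the homeostatic sum, a measure chosen after the data were seen. Trem2 then had 14.2, 13.2 and 13.9 units in the mutants, against 14.7, 14.9 and 14.9 units in NTg. The NTg libraries were nearly equal and all lay above the mutants, with means of 13.8 ± 0.49 and 14.8 ± 0.12 (SD, n = 3 each), a ratio of 0.93 (p = 0.1, the smallest possible, exact permutation test, two-sided). On this scale 4.30% of all genes tested had no overlap between the groups, 3.05% higher and 1.24% lower. In the edgeR fit with libraries scaled in the same way, the log2 fold change of Trem2 was -0.11 (unadjusted p = 0.370 by edgeR), and the median of all genes tested was 0.064. Axl had 5.91, 6.71 and 4.59 units in the mutants, against 6.95, 8.10 and 5.24 units in NTg, and its groups overlapped (p = 0.4, exact permutation test, two-sided). Tyrobp, with 10.3 to 11.4 units in the mutants and 10.8 to 12.3 units in NTg, overlapped as well, as did the other 7 targets.

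**Figure D5:**
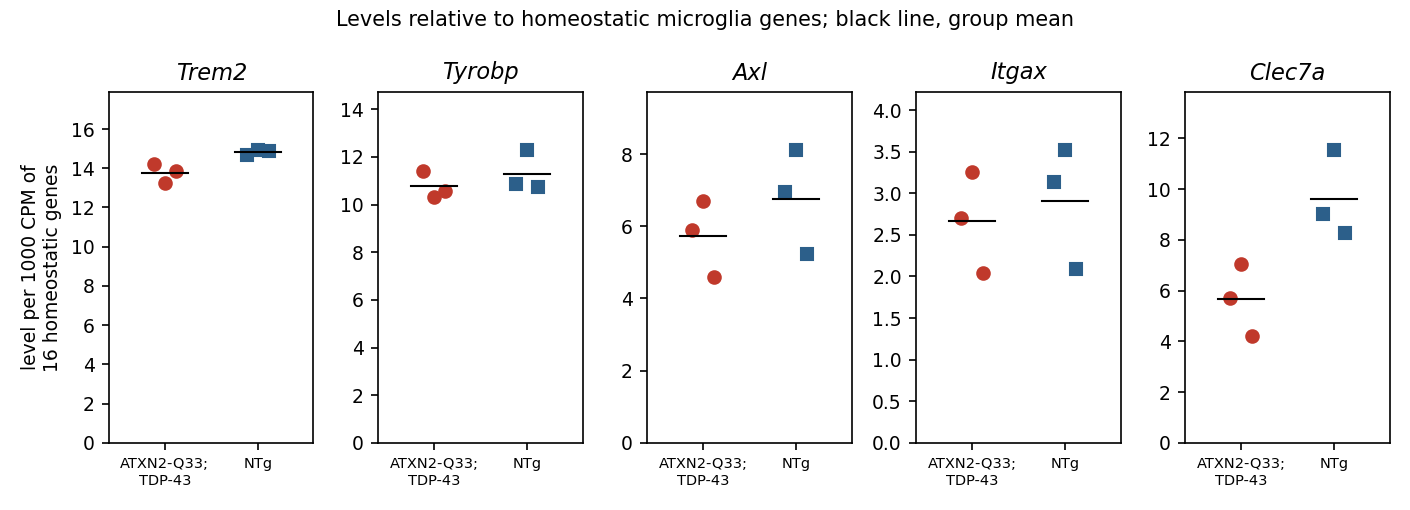
Levels per 1000 CPM of the summed 16 homeostatic genes in the 3 ATXN2-Q33;TDP-43 libraries (circles, left) and the 3 NTg libraries (squares, right), with black lines at the group means. Trem2 and Clec7a have no overlap between the groups, with mutant means of 13.8 and 5.66 and NTg means of 14.8 and 9.61, while Tyrobp, Axl and Itgax overlap.

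The sequence upstream of the members was examined for letters they share. RefSeq promoter windows on GRCm38.p6, from 250 bases before to 50 bases after a start site, were found for 9 of the 10 members, in 12 windows; Tyrobp was not matched. The letters TGANTCA, with any base as N, are a looser form of the AP-1 motif TGASTCA, where S is C or G. They were searched on both strands. They stood in 5 of the 12 windows of the members, against 7.81% of all 32851 windows of that length. These 5 windows belong to 5 members, Trem2, Cst7, Itgax, Gpnmb and Igf1. The share of all genes with a match in any window was not counted. The centre base was G in Itgax and C in Gpnmb. It was A in Trem2 and Igf1 and T in Cst7, outside the stricter motif. The share of all windows with the stricter motif was not counted. None of the matches overlapped a match of the other motifs searched. GAGGAAGT, a PU.1 motif, stood in 1 window, that of Spp1, against 3.20% of all windows, and CACGTG, the E-box of MITF and TFE factors, in 0 windows of the members, against 7.15%. Shown, with matches of TGANTCA in capitals, are the windows of Trem2 as a sensor and of Cst7 and Itgax as targets with a match. The window of Axl is added as the target without one whose groups did not overlap. The windows run in the direction of the gene, chr17:48346151-48346450 (plus strand) for Trem2, chr2:150570165-150570464 (plus) for Cst7, chr7:128129300-128129599 (plus) for Itgax and chr7:25788684-25788983 (minus) for Axl.
Trem2: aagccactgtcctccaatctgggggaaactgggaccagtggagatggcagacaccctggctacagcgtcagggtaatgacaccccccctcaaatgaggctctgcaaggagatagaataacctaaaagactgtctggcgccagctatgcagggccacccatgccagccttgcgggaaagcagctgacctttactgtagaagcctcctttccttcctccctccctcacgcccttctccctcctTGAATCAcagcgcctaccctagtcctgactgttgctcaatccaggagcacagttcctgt
Cst7: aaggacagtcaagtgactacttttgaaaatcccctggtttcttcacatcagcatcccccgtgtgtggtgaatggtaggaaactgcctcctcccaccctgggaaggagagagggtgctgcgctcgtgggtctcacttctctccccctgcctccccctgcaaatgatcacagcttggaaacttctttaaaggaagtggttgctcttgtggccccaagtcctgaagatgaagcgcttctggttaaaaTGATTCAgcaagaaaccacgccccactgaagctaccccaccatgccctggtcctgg
Itgax: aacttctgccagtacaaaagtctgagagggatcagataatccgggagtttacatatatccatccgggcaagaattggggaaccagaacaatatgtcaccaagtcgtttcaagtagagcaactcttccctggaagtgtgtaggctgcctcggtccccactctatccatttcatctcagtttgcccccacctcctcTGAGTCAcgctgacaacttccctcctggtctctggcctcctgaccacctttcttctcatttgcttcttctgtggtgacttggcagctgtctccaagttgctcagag
Axl: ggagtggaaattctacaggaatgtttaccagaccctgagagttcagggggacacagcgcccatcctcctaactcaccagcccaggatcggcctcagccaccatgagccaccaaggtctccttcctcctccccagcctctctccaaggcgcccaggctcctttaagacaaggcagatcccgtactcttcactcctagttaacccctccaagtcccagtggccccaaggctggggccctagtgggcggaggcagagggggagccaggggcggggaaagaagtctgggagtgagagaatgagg
The match begins 9 bases before the start site in Trem2, 6 bases before it in Cst7 and 56 bases before it in Itgax. A match is a run of letters and not a measured binding site, and members with and without it did not separate by their fold changes, with Gpnmb at -0.31 and Axl at -0.28.

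Genes that carry the TREM2 signal inside the cell did not pass the test. Of 23 genes of signalling and shedding, all tested, 8 had a positive and 15 a negative log2 fold change, with a median of -0.03, and 0 were called in either direction. Syk, the kinase recruited by TYROBP, had 308, 294 and 318 CPM in the mutants, against 282, 285 and 289 CPM in NTg, without overlap and with a log2 fold change of 0.11 (SE 0.08). Adam17, a protease that sheds TREM2 from the surface, had 162, 146 and 162 CPM in the mutants, against 167, 178 and 176 CPM in NTg, also without overlap, with a log2 fold change of -0.14 (SE 0.08). Lat2, a membrane adaptor, had a log2 fold change of -0.13 (SE 0.11). Across the list 3 of 23 genes did not overlap, 1 higher and 2 lower, against 6.85% of all genes in either direction. The other receptors of the TREM and CD300 families were low, at a summed 92.6 to 138 CPM in the mutants and 99.0 to 120.1 CPM in NTg, with 4 positive and 5 negative values among 9. Trem1, a receptor known from neutrophils and monocytes, had 22.0, 13.6 and 1.40 CPM in the mutants, against 8.54, 4.15 and 4.49 CPM in NTg, and the log2 fold change was 0.21 (SE 0.18) for Treml2 and 0.56 (SE 0.64) for Treml4. The summed neutrophil markers stood highest in the same mutant libraries, at 1768, 1140.2 and 60.5 CPM, against 671, 182 and 425 CPM in NTg; their part in the values of Trem1 was not tested.

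The partners of the secreted and surface members overlapped between the genotypes for all partners tested. Csf1r, the receptor of CSF1, had 4396, 3493 and 5014 CPM in the mutants, against 4348, 3906 and 4761 CPM in NTg, a log2 fold change of -0.01 (SE 0.15), and Csf2ra and Csf2rb, chains of related cytokine receptors, had -0.09 (SE 0.11) and -0.06 (SE 0.08). Il34, the other ligand of that receptor, was not tested, at 0.66 CPM or less in each library. Mertk, the sister receptor of Axl, had 454, 478 and 544 CPM in the mutants, against 460.3, 440 and 496 CPM in NTg, a log2 fold change of 0.08 (SE 0.10), and so lay on the other side of 0 from Axl. The ligands Gas6 and Pros1 had 0.07 (SE 0.09) and -0.10 (SE 0.12), and Tyro3, at 0.31 to 5.77 CPM in the mutants and 0.77 to 3.43 CPM in NTg, had 0.48 (SE 1.09). The receptors of osteopontin, Cd44, Itgav, Itgb1, Itgb3 and Itgb5, ran from -0.09 to 0.12. Itgb2, the beta chain of CD11c, had -0.01 (SE 0.09), with its other partners Itgam at -0.10 (SE 0.14) and Itgal at 0.47 (SE 0.50). In the insulin-like growth factor system 5 of 7 tested genes were positive, with Igfbp5, a binding protein, at 1.29 (SE 0.45, unadjusted p = 0.0215 by edgeR) and Irs1 and Irs2 at 0.91 (SE 0.91) and -0.09 (SE 0.09). Igfbp5 had 4.45, 15.95 and 7.84 CPM in the mutants, against 4.11, 4.61 and 2.90 CPM in NTg, so the groups overlapped. The ependymal markers were also highest in mutant library 10, at a summed 159 CPM. Their sum was 55.7 to 94.6 CPM in the other mutants and 36.9 to 47.2 CPM in NTg. Without the marker Hdc it was 117 CPM in library 10, 30.6 and 51.9 CPM in the other mutants and 19.5 to 35.0 CPM in NTg.

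Genes of lipid handling around APOE did not pass the test either. Of 18 genes, 17 were tested, with a median of 0.07 and 0 called. Of these, 11 were positive and 6 negative, against 52.0% of all genes with a positive value. Sorl1, a sorting receptor that binds APOE, had 158, 154 and 110 CPM in the mutants, against 117, 102 and 118 CPM in NTg, a log2 fold change of 0.33 (SE 0.14, unadjusted p = 0.0457 by edgeR). Its groups overlapped through mutant library 12. Soat1, which esterifies cholesterol, had a log2 fold change of -0.15 (SE 0.08). It was the 1 of the 17 without overlap, against 6.85% of all genes in either direction. Clu, the apolipoprotein clusterin, known from astrocytes and ependyma, had 14.98, 68.3 and 25.8 CPM in the mutants, against 9.26, 23.0 and 14.3 CPM in NTg. Among 20 transcription factors linked to the program, 5 were positive and 15 negative, with a median of -0.09. Of the 20, 1 did not overlap between the groups, against 6.85% of all genes in either direction. This was Tfe3, a regulator of lysosomal genes, at -0.14 (SE 0.08), while Hif1a had -0.13 (SE 0.08) and Bhlhe40 0.54 (SE 0.45).

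In the wider disease-associated list, Clec7a stood further from 0 than any member. Of 30 further genes, 29 were matched and 28 tested, of which 21 had a negative and 7 a positive value, with a median of -0.12, close to that of the 8 targets. By edgeR 0 were called, 4 had an unadjusted p under 0.05, and 6 did not overlap between the groups, all lower, against 3.58% of all genes in that direction. Clec7a, the beta-glucan receptor Dectin-1, had 101, 102 and 87.7 CPM in the mutants, against 161, 187 and 168 CPM in NTg. By edgeR its log2 fold change was -0.83, with SE 0.10, a 95% interval from -1.05 to -0.61 and an adjusted p of 0.113. The 3 mutant libraries all lay below the 3 NTg libraries. Per homeostatic sum it had 5.71, 7.04 and 4.22 units in the mutants, against 9.02, 11.5 and 8.28 units in NTg, still without overlap. For the chemokines, log2 fold changes were -0.28 (SE 0.11) for Ccl4 and -0.27 (SE 0.11) for Ccl3. This list was drawn up with earlier results of these libraries known, Clec7a among them.

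Several members are also made by cells other than microglia, whose markers were read beside them. Border macrophages, which also make Apoe and Igf1, had summed markers of 433 to 527 CPM in the mutants and 431 to 518 CPM in NTg over 12 genes, none at 0 in all libraries, with 6 of 11 tested positive. Astrocytes, the main makers of Apoe in the brain, had summed markers of 113 to 175 CPM in the mutants and 106 to 136 CPM in NTg, with 7 of 9 tested positive. Aqp4, the water channel of astrocytes, had 5.27, 11.3 and 8.31 CPM in the mutants, against 3.38, 3.95 and 4.09 CPM in NTg. It was the 1 of 9 tested astrocyte markers without overlap, against 6.85% of all genes in either direction. The median log2 fold change of the 9 was 0.11, and 2 were negative. Markers of dendritic cells, which carry Itgax, summed to 31.1 to 37.9 CPM in the mutants and 33.3 to 37.7 CPM in NTg, and those of natural killer and T cells, which carry Cst7, to 5.40 to 12.8 CPM and 4.43 to 8.89 CPM, with the T cell marker Cd3e at 0 in 5 of 6 libraries. Monocyte markers summed to 83.7 to 308 CPM in the mutants and 138 to 158 CPM in NTg, with 10 of 10 positive, and were lowest in mutant library 12. Fibroblast markers summed to 5.35 to 37.3 CPM in the mutants and 6.52 to 13.7 CPM in NTg, endothelial markers to 113 to 402 CPM and 114 to 383 CPM, and neuron markers to 16.6 to 31.8 CPM and 17.3 to 20.4 CPM. Of the summed markers of other cell types, those of ependymal cells did not overlap between the groups and the others did. Among the ependymal markers, Hdc had 64.0, 42.1 and 3.74 CPM in the mutants and 22.1, 12.3 and 11.9 CPM in NTg. Like the summed neutrophil markers, Hdc was highest in mutant library 8 and lowest in mutant library 12. Without Hdc the ependymal sum overlapped too, at 30.6, 117 and 51.9 CPM in the mutants and 19.5, 35.0 and 25 CPM in NTg. Of 8 ependymal markers tested, 8 were positive, with a median log2 fold change of 1.38, and 0 were called. By edgeR 5 had an unadjusted p under 0.05, against 2.26% of all genes in either direction. The groups did not overlap for 3, all higher, against 3.27% of all genes in that direction. Hdc overlapped, with an unadjusted p of 0.277 by edgeR. For all these markers, their part in the values of the members was not tested.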

How the data were processed

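Per the file headers, the authors deposited raw fragment counts per gene from featureCounts 1.6.1 (strand setting 2, GENCODE vM25, mm10), together with each gene's exon length, an other measure in bases. A fragment over several genes counted for each. Trim Galore 0.4.1 and TopHat2 are named in the submitters' processing notes. The 6 columns of other samples were not used. Symbols matched 55141 of 55401 identifiers.

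Counts were tested with edgeR 4.0.16 in R 4.3.3: filterByExpr (minimum count 10), TMM, a robust quasi-likelihood fit without covariates over 16248 genes, Benjamini-Hochberg adjustment and a threshold of 0.05. Intervals are 95% from the unshrunk fold change. For exact permutation tests, 0.5 was added to CPM before taking log2. All 10 members passed the filter. The common biological coefficient of variation was 0.261. DESeq2 1.42.0, limma 3.58.1, other filters and scalings and each library left out were alternatives. No 2 libraries agreed within sampling noise (chi-square per degree of freedom 6.10 to 33.6).

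Named are all members and, per list, up to 3 genes with the smallest p, all of a list of 5 or fewer, and markers at 0; Cd3e, Aqp4 and Hdc were named after their values were seen. Members and lists were chosen with earlier results of these data known.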

Additional observations from a re-analysis of the deposited data

How the results depend on the processing

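The labels give no pairs, since the groups share no replicate number, so the main test was unpaired. Libraries with neighbouring numbers were nonetheless each other's closest match (chi-square per degree of freedom 8.76 for 8 with 7, 10.7 for 10 with 9 and 6.10 for 12 with 11), a hint from the data and not the design. With these neighbours as a block, an alternative chosen after seeing the data, edgeR called 71 genes, 51 higher and 20 lower; unadjusted p was 0.000599 for Axl (adjusted 0.0862), 0.0250 for Trem2 (adjusted 0.459) and 0.0253 for Csf1 (adjusted 0.460). The count of genes called was 0 as reported, 7 with DESeq2, 6 with no filter on low counts, 1 when ATXN2-Q33;TDP-43 replicate 10 and NTg replicate 9 were left out together, and 0 to 2 over the 6 fits that left out 1 library, and none of the called genes was a member. In 17 alternative fits, Cst7, Axl, Gpnmb and Csf1 kept a negative sign in all 17. The sign of the log2 fold change turned without ATXN2-Q33;TDP-43 replicate 10 for Trem2 (0.00578), Tyrobp (0.0480), Apoe (0.0511) and Igf1 (0.00447), without NTg replicate 11 for Apoe (0.00731) and Igf1 (0.0338), without ATXN2-Q33;TDP-43 replicate 12 (-0.18) or NTg replicate 9 (-0.0492) for Spp1, with the combined alignments as a covariate for Itgax (0.12) and Spp1 (-0.0806), without ATXN2-Q33;TDP-43 replicate 10 and NTg replicate 9 together for Tyrobp (0.0364), and scaled to the homeostatic genes, an alternative chosen after seeing the data, for Apoe (0.0194). The cause was not tested. Over the 6 fits that left out 1 library, the log2 fold change ran from -0.28 to 0.00578 for Trem2, -0.21 to 0.0480 for Tyrobp, -0.0864 to 0.0511 for Apoe, -0.18 to 0.14 for Spp1, -0.52 to -0.10 for Gpnmb and -0.25 to 0.0338 for Igf1. In these 6 fits the median of the sensors ran from -0.25 to 0.027 and that of the targets from -0.20 to -0.13; with the combined alignments as a covariate they were -0.25 and -0.096. Igf1 and Gpnmb rest on 77 to 210 counts per library, which limits their precision.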
